A study of Rattus norvegicus with 6 samples.

Results

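The genes of the LINC complex and the nuclear lamina (Sun1, Sun2, Syne1, Syne2, Syne3, Lmna, Lmnb1, Lmnb2, Emd and Lbr) were taken from a table of linear transcripts of rat lung by their gene name. Of the 10 names, 7 were found, with 24 of the 70376 transcripts in the table. Syne1 and Syne2 had no row under their own names. A description in the table assigns the 22 transcripts of the locus AABR07001382.1 to spectrin repeat containing nuclear envelope protein 1, the product of Syne1, and the RefSeq gene table lists AABR07064873.1, with 12 transcripts, as another name of Syne2. Both loci are therefore described apart from the 7 genes. Lbr, the lamin B receptor, had no row under its name and was not analysed here. The genes were selected on their place in the nuclear envelope, and Sun2 was in addition chosen by the FPKM of its isoform MSTRG.33447.1 in these samples, nearly 0 in control and above 0 in PF model lungs, so every value of Sun2 is given as a description without a test.

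The control group was 3 Sprague-Dawley rats given saline in the same volume, and the PF model group was 3 rats given a single intratracheal dose of bleomycin at 7 mg/kg. The rats were 7 weeks old at the start, and lungs were taken on day 28. One library depleted of rRNA was made from the lung RNA of each rat, and FPKM (fragments per kilobase of transcript, scaled by the total of the library) were compared. The library totals by which FPKM are scaled were between 42600000 and 48900000, as the ratio of coverage to FPKM gives them, and log2(FPKM + 1) of the gene sums correlated at r between 0.944 and 0.951 for the 6 pairs of samples in the same group and between 0.938 and 0.957 for the 9 pairs across groups. Lung markers were abundant in every sample, with Sftpc, surfactant protein C of type 2 cells, between 2410 and 4146 FPKM and Ager, a type 1 cell marker, between 273 and 412 FPKM. Model 3 stood apart in the summed level of 5 cardiac muscle genes, which was 14.9 FPKM there and between 1.30 and 2.75 FPKM in the other samples. This did not hold for each gene, since Tnni3 had 2.27 FPKM in model 3 and 1.96 FPKM in control 3. Since whole lung was sequenced, fewer cells of a type and less RNA per cell cannot be told apart.

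The LINC complex links the cytoskeleton to the nucleus. SUN proteins (Sun1 and Sun2) cross the inner nuclear membrane and bind, in the space between both membranes, the KASH domain of nesprins (Syne1, Syne2 and Syne3) in the outer membrane. Large nesprins reach actin in the cytoplasm, while SUN proteins contact the lamina, a meshwork of A-type lamins (from Lmna) and B-type lamins (from Lmnb1 and Lmnb2) that also holds emerin (Emd). These proteins pass mechanical force to the nucleus, and lamin A/C is known to be more abundant in stiff tissues.

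The 5 isoforms of Sun2 lay on the minus strand of chromosome 7 in the coordinates of the table, whose genome build is not given in the sources used here. All began at the same base, 120967490, so that they did not differ in their start. The promoter is shown because the isoforms described below, those that differed between groups and those that did not, share this start. Whether the RefSeq start, which is in another coordinate system, is the same base was not tested. In RefSeq (GRCr8) the window from 250 bases before to 50 after the Sun2 start is chr7:113172845-113173144, minus strand, with capitals marking GGGCGG and CCAAT on either strand.

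Sun2 promoter: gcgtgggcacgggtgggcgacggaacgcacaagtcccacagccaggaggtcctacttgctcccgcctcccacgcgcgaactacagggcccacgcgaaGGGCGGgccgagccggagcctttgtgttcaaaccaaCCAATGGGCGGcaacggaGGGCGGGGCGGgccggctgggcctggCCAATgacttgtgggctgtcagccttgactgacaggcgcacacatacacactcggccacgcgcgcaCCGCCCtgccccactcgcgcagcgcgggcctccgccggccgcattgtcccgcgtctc

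GGGCGG, the core of a GC box, occurred 5 times in this window (overlapping copies counted) and in 33.1% of all 33469 RefSeq promoters of this length. CCAAT occurred 2 times and was present in 37.5% of promoters, and TATAAA had no match, against 14.2% of promoters. The window held 34 CpG dinucleotides, a number that 6.82% of the promoters reached.

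MSTRG.33447.1, an assembled Sun2 isoform of 18 exons and 3691 bases (120950391 to 120967490), had 0.00246, 0.00122 and 0.127 FPKM in controls 1, 2 and 3, and 8.27, 7.35 and 6.90 FPKM in models 1, 2 and 3. Its mean was 0.0435 ± 0.0722 FPKM (SD, n = 3) in control and 7.51 ± 0.694 FPKM (SD, n = 3) in PF model lungs. All model samples were above all control samples, which is the difference that brought Sun2 into the list. In reads, estimated from the coverage, the isoform had 0.421, 0.192 and 22.9 in the controls and 1479, 1193 and 1172 in the models.

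MSTRG.33447.3 was the most abundant Sun2 isoform in every sample. It has 18 exons and 3701 bases (120950399 to 120967490), 10 bases more than MSTRG.33447.1 although its 3' end lies 8 bases short of it. Its level was 13.4, 19.5 and 12.1 FPKM in the controls and 8.71, 12.5 and 13.0 FPKM in the models, and the groups overlapped. The other isoforms overlapped too. MSTRG.33447.4, with 15 exons and 4555 bases, had 4.94, 2.88 and 6.54 FPKM in the controls and 6.75, 2.44 and 3.42 FPKM in the models. MSTRG.33447.2, with 17 exons and 3606 bases, had 0.670, 0.554 and 0 FPKM in the controls and was listed at 0 in all models. The annotated transcript ENSRNOT00000046399 (120951560 to 120967490, 18 exons, 2546 bases) stayed between 0.401 and 0.658 FPKM. All 4 assembled isoforms share at least 1 splice junction with it, differ in another, and extend at least 1161 bases past its 3' end.

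**Figure D1:**
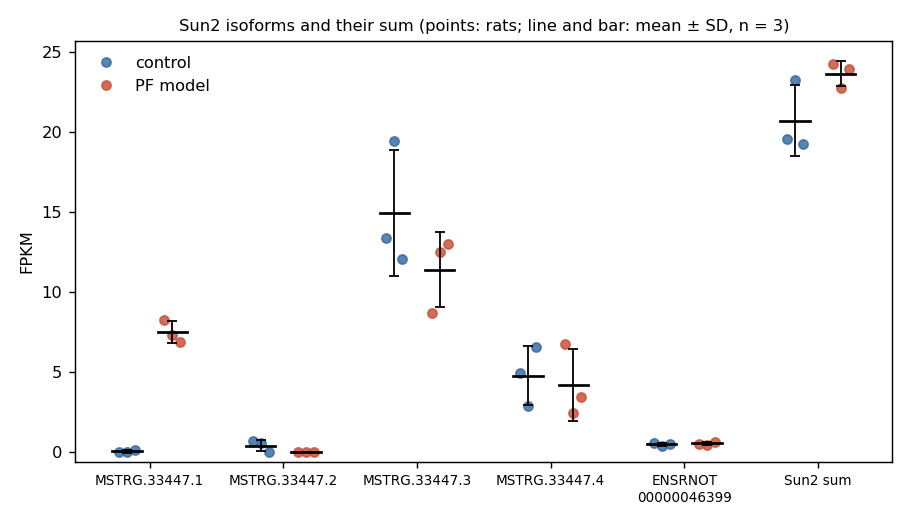
FPKM (y axis) of the 5 Sun2 isoforms and of their sum in each rat, with points for rats, horizontal lines for means and bars for SD (n = 3 per group). MSTRG.33447.1 is the isoform whose groups stand far apart (0.00122 to 0.127 against 6.90 to 8.27 FPKM), while the Sun2 sum overlaps (19.3 to 23.3 against 22.8 to 24.3 FPKM).

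The sum of the Sun2 isoforms differed little. It was 19.6, 23.3 and 19.3 FPKM in the controls and 24.3, 22.8 and 24.0 FPKM in the models, with means of 20.7 ± 2.24 and 23.7 ± 0.796 FPKM (SD, n = 3). Control 2 lay within the range of the models, and the log2 ratio of the means was 0.19. The mean of MSTRG.33447.1 was 7.46 FPKM higher in the models, that of MSTRG.33447.3 fell by 3.57 FPKM between the group means and that of the sum was 2.95 FPKM higher. Without MSTRG.33447.1, the rest of Sun2 was 19.6, 23.3 and 19.1 FPKM in the controls and 16, 15.4 and 17.1 FPKM in the models, and the groups did not overlap. Since MSTRG.33447.1 was chosen for its difference and the sum differed less, a lower rest follows from that choice and is no separate result.

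As a share of the Sun2 sum, MSTRG.33447.1 made up 0.0126%, 0.00525% and 0.658% in the controls and 34.1%, 32.3% and 28.8% in the models, 31.5 percentage points more on average. MSTRG.33447.3 made up 68.4%, 83.5% and 62.7% in the controls and 35.9%, 55.1% and 54.2% in the models, without overlap. Shares of a gene add up to the whole, so this share is not independent of that of the chosen isoform. Groups did not overlap for 9.25% of all shares. When both were taken as one transcript, since they differ in length by 10 bases, their share was 68.4%, 83.5% and 63.3% in the controls and 70.0%, 87.3% and 83.0% in the models. The groups then overlapped, and the difference of the means was 8.36 percentage points. Taken with MSTRG.33447.2, which ends at the same 3' base, MSTRG.33447.1 made up 2.16% in the controls and 31.7% in the models on average. This difference was 29.55 percentage points. Each of these pairs holds the isoform that was chosen by its values. How StringTie divided reads between both isoforms was not tested.

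Shares that differ widely between rats of the same group were frequent in this table. Of 48168 isoforms of 10661 genes with at least 2 isoforms, 17.8% had a range of at least 30 percentage points among the 3 rats of a group. The range of MSTRG.33447.1 itself was 0.653 percentage points among the controls and 5.28 among the models. A difference of group means at least as large as that of MSTRG.33447.1, which was chosen by its values in these samples, was found for 790 isoforms, of which 316 had groups that did not overlap. The 3 transcripts whose log2(FPKM + 1) was most like that of MSTRG.33447.1, of 45807 transcripts with a mean of at least 1 FPKM and over 6 samples, were MSTRG.32789.3 of Ywhaz (r = 0.9986), MSTRG.36815.1 of Map4k4 (r = 0.9984) and MSTRG.28247.1, which has no gene name (r = 0.9982). All 3 were listed at 0 in the controls, and had 12.0, 10.7 and 11.6 FPKM, 5.12, 4.26 and 3.77 FPKM, and 10.4, 10.3 and 10.5 FPKM in the models. These correlations describe transcripts that are high in 3 samples and low in 3 samples of the same libraries. For Ywhaz and Map4k4 the sums over all isoforms had log2 ratios of -0.15 and 0.03.

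**Figure D2:**
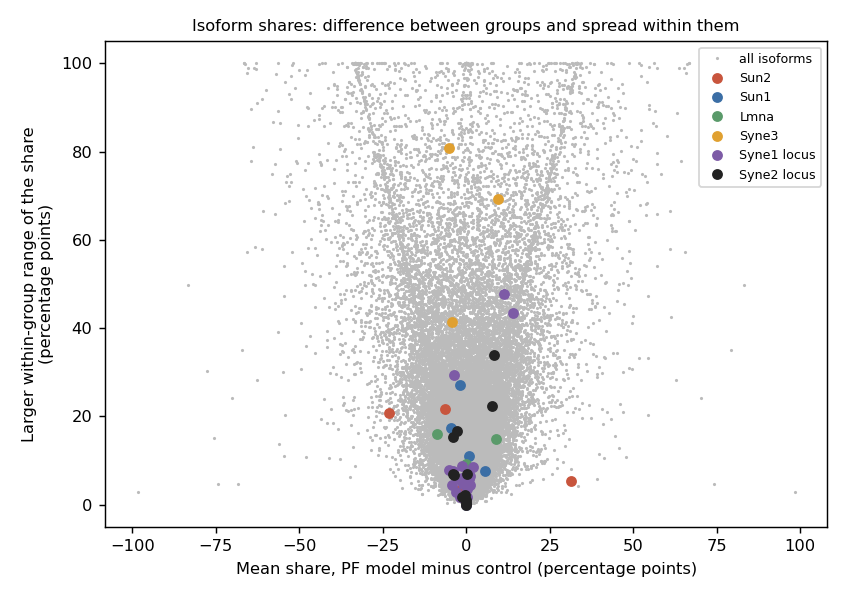
Each point is one isoform, with the difference of its mean share of the gene sum (PF model minus control, percentage points) on the x axis and the larger of its ranges within a group (percentage points) on the y axis. MSTRG.33447.1, which was chosen by its values in these samples, is the red point at 31.5 on the x axis, and the Syne3 isoforms (orange) have ranges of over 40 and lie between -5.29 and 9.49 on the x axis.

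The other 6 genes found by name were tested with the same comparison of PF model and control lungs. No gene sum was called at an unadjusted p of at most 0.05 with an absolute log2 ratio of at least 1, against 2.11% of all 29114 genes tested. At p alone 1 of the 6 passed (Lmna), against 4.9% of all genes, and adjusted p values by limma with Benjamini-Hochberg adjustment lay between 0.927 and 0.994. The median log2 ratio of the 6 genes was 0.12, beside -0.04 over all genes. In 2 of the 6 (Lmna and Sun1) the groups did not overlap, against 10.8% of all genes. Rescaled to TPM (FPKM brought to the same sum in every sample), the median of all genes moved by 0.082, and all 6 genes had log2 ratios above 0.

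Lmna, which encodes lamins A and C, had the smallest p of these 6 genes. Its sum was 19.6, 18.7 and 16.1 FPKM in the controls and 22.4, 21.9 and 22.9 FPKM in the models, so that every model lay above every control. The means were 18.1 ± 1.82 and 22.4 ± 0.498 FPKM (SD, n = 3). On the log2(FPKM + 1) scale, which understates the change of low genes, the difference was 0.30 with an SE of 0.09 (limma, adjusted p = 0.927). Its unadjusted p was below 0.05, and it was not called since the log2 ratio of 0.31 is below 1. Col3a1, a collagen of fibroblasts, had a log2 ratio of the same size (0.31) and an unadjusted limma p below 0.05, with 174, 178 and 154 FPKM in the controls and 188.5, 204 and 232 FPKM in the models. Col3a1 was the only one of 6 fibroblast and smooth muscle genes with groups that did not overlap. The log2 ratio was above 0 for 5 of the 6 and -0.41 for Tagln, and their summed level, 328 to 374 FPKM in the controls and 368.5 to 499.9 FPKM in the models, overlapped. The 4 type 2 and 4 type 1 cell markers also had log2 ratios above 0, with medians of 0.29 and 0.09, beside 0.22 for the fibroblast and smooth muscle genes. Their groups overlapped. The 2 endothelial markers and 2 of 3 leukocyte markers had log2 ratios below 0. The part of any of these cell types in the result for Lmna was not tested.

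Among the Lmna isoforms (chromosome 2, minus strand), the annotated ENSRNOT00000082174 (187842887 to 187863516, 12 exons, 3073 bases) was the most abundant in every sample. It had 11.2, 10.3 and 7.03 FPKM in the controls and 11.8, 13.8 and 15.4 FPKM in the models, again without overlap (limma, adjusted p = 0.945). Its share of 57.2%, 54.9% and 43.6% in the controls and 52.5%, 63.0% and 67.3% in the models overlapped. The assembled MSTRG.20119.2 had 4.37, 3.95 and 3.18 FPKM in the controls and 5.96, 4.16 and 4.01 FPKM in the models. MSTRG.20119.3 had 3.95, 4.41 and 5.83 FPKM and 4.61, 3.90 and 3.46 FPKM. Neither passed the test (limma, adjusted p = 0.945), and the 3 other Lmna isoforms had group means of at most 0.0341 FPKM. One of these, ENSRNOT00000026705, has 3075 bases and the same number of exons as ENSRNOT00000082174, so that the division of reads between this pair is uncertain.

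Sun1, the paralogue of Sun2, varied little as a sum, with 15.8, 16.6 and 16.5 FPKM in the controls and 17.4, 16.7 and 17.6 FPKM in the models. The groups did not overlap by a narrow margin, and the log2 ratio of 0.08 did not pass the test (limma, adjusted p = 0.927). Of its 5 isoforms (chromosome 12, minus strand), 4 had a mean of at least 1 FPKM. The annotated ENSRNOT00000089418 (17488487 to 17519954, 22 exons, 4077 bases) had 3.61, 8.29 and 4.86 FPKM in the controls and 6.07, 4.53 and 6.13 FPKM in the models. MSTRG.8791.1, 3 bases shorter with the same ends, had 4.63, 3.78 and 3.59 FPKM in the controls and 5.02, 5.76 and 4.88 FPKM in the models. This isoform was higher in every model than in any control (limma, adjusted p = 0.945), with a log2 ratio of 0.38, below the limit for a call. It has the same number of exons as ENSRNOT00000089418, so that the division of reads between this pair is uncertain. MSTRG.8791.2, which begins at 17504902 inside the gene, had 3.24, 2.91 and 3.50 FPKM in the controls and 3.53, 4.35 and 2.64 FPKM in the models. MSTRG.8791.3 had 4.27, 1.59 and 4.44 FPKM and 2.79, 2.0 and 3.86 FPKM.

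**Figure D3:**
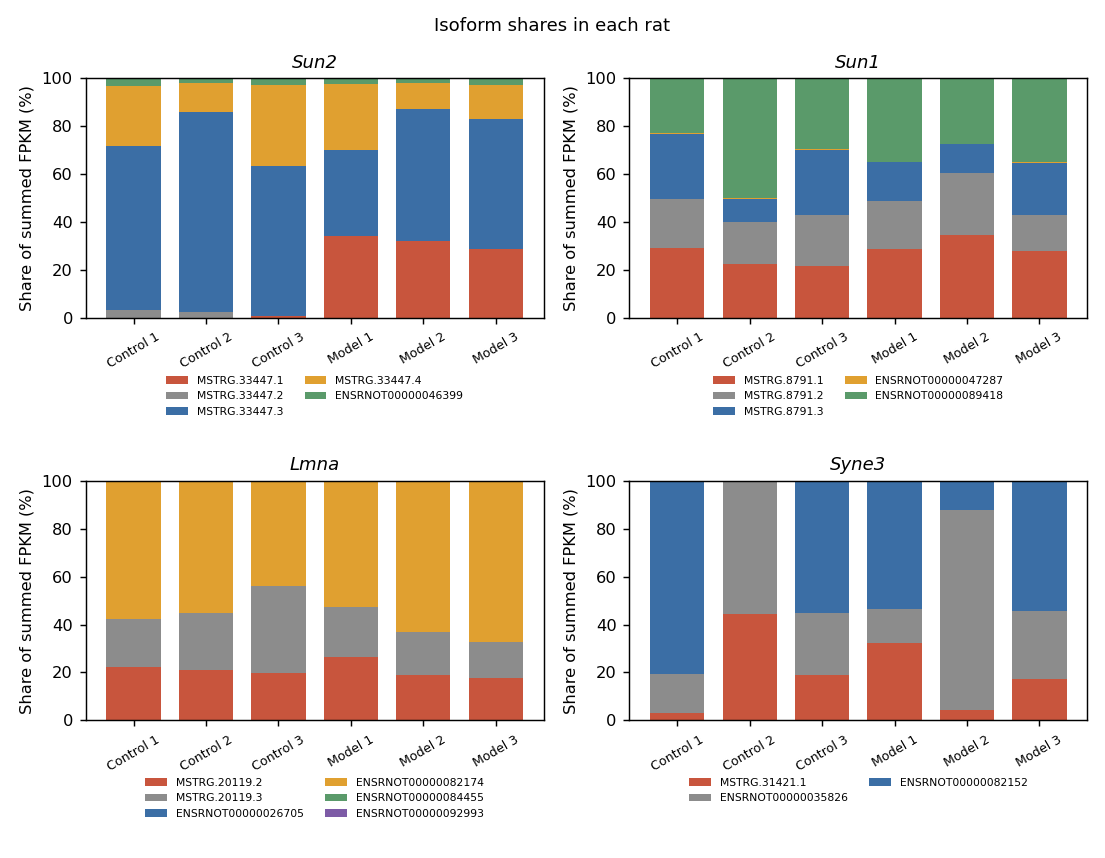
Share of the summed FPKM (percent, y axis) that each isoform of Sun2, Sun1, Lmna and Syne3 took in each of the 6 rats, with 1 stacked bar per rat. In Sun2 the red part (MSTRG.33447.1) is 28.8% to 34.1% in the models and at most 0.658% in the controls, and in Syne3 the shares differ as much within a group as between groups.

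Over the 19 transcripts of the 6 genes that were tested, 0 were called by limma, against 2.98% of 64867 transcripts. At an unadjusted p of at most 0.05, 2 passed, the Lmna and Sun1 isoforms above, against 4.53% of all transcripts. Among 18 isoform shares of 5 genes, 0 were called at p of at most 0.05 with a difference of at least 10 percentage points, against 2.25% of all 48168 shares, and 0 had an unadjusted p of at most 0.05, against 4.03%. Groups that did not overlap were found for 3 of the 19 transcripts, against 10.4% of all transcripts, and for 2 of the 18 shares, against 9.25% of all shares. These 2 shares were of isoforms of Sun1 and Lmna that made up at most 0.554% of the sum.

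Syne3, which encodes nesprin-3, a nesprin that binds plectin and thus intermediate filaments, was low, with 2.22, 4.03 and 2.32 FPKM in the controls and 3.61, 1.48 and 3.23 FPKM in the models. Its log2 ratio was -0.04 in FPKM and 0.07 in TPM. Its isoforms (chromosome 6, minus strand) varied widely within the groups. ENSRNOT00000082152 (128657880 to 128727374, 15 exons, 2634 bases) had 1.79, 0.00226 and 1.28 FPKM in the controls and 1.94, 0.182 and 1.76 FPKM in the models. ENSRNOT00000035826 (128641214 to 128690741, 20 exons, 2932 bases) had 0.355, 2.23 and 0.599 FPKM and 0.512, 1.24 and 0.912 FPKM. Control 2 and model 2 were thus low in the first and high in the second. The share of ENSRNOT00000082152 was 80.8%, 0.0560% and 55.4% in the controls and 53.7%, 12.3% and 54.4% in the models. The row MSTRG.31421.1 is a piece of 309 bases inside an intron, and had 0.0628 to 1.79 FPKM.

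Emd, which encodes emerin, had 9.38, 9.79 and 10.1 FPKM in the controls and 12.7, 8.71 and 11.4 FPKM in the models (chromosome X, minus strand). Models 1 and 3 were above all controls and model 2 below them (limma, adjusted p = 0.935). Its annotated transcript ENSRNOT00000080990 (156452818 to 156456035, 6 exons, 1476 bases) had 8.43, 8.56 and 8.29 FPKM and 10.7, 7.84 and 10.4 FPKM, and MSTRG.39103.1, a piece of 568 bases downstream of the gene, had between 0.863 and 2.05 FPKM.

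The B-type lamins were lower than Lmna in every sample. Lmnb1 had 6.16, 5.99 and 7.86 FPKM in the controls and 5.50, 7.05 and 6.91 FPKM in the models (limma, adjusted p = 0.991), with a log2 ratio of -0.04 in FPKM and 0.04 in TPM. Its annotated transcript ENSRNOT00000019351 (chromosome 18, plus strand, 51785111 to 51822264, 11 exons, 2148 bases) had between 3.52 and 4.87 FPKM. MSTRG.16771.1, a downstream piece of 390 bases, had between 1.98 and 2.99 FPKM and took 30.4% to 38.2% of the sum. Lmnb2, with 1 transcript, ENSRNOT00000022336 (chromosome 7, plus strand, 11660934 to 11675472, 12 exons, 2067 bases), had 1.82, 1.42 and 1.21 FPKM in the controls and 1.51, 1.91 and 1.75 FPKM in the models (limma, adjusted p = 0.939).

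The locus of Syne1, the gene of the giant nesprin-1, was among the highest of the set. Its 22 transcripts summed to 30.5, 28.5 and 30.02 FPKM in the controls and 27.1, 26.3 and 25.9 FPKM in the models, and every model was below every control. The means were 29.7 ± 1.03 and 26.4 ± 0.606 FPKM (SD, n = 3). The difference on the log2(FPKM + 1) scale was -0.16 with an SE of 0.06 (limma, adjusted p = 0.927), and its unadjusted p was below 0.05. The unadjusted p was above 0.05 when any one sample was left out, and the difference was -0.08 in TPM and -0.07 with isoforms weighted by length. Of the leukocyte markers 3 of 5 were in the table, and their summed level was 45.9 to 61.7 FPKM in the controls and 34.0 to 55.5 FPKM in the models. Ptprc (CD45) and Cd3e had log2 ratios of -0.32 and -0.11, Cd68 had 0.11, and the groups overlapped for all 3. Cd68 was 1.30 FPKM in control 3, 1.21 FPKM in model 2 and 20.7 to 22.8 FPKM in the other samples, which moves the summed level. The endothelial Cdh5 and Kdr and the airway gene Scgb1a1 had log2 ratios of -0.04, -0.09 and -0.26, also with overlap. Other cell types went the other way. All 4 type 2 and all 4 type 1 markers and 5 of 6 fibroblast and smooth muscle genes had log2 ratios above 0. So had 4 of 5 genes of proliferating cells and 1 of 3 neutrophil markers. The part of any of these cell types in the result for Syne1 was not tested.

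In the Syne1 locus 4 of 22 transcripts were called, all lower in PF model lungs, against 1.76% of all transcripts called in that direction. All 4 had an adjusted p of 0.945 by limma. Isoforms of a locus divide the same reads, so these 4 calls are not independent. Groups that did not overlap were found for 4 of the 22 transcripts, against 10.4% of all transcripts. Among the 34 isoform shares of both nesprin loci, 0 were called by limma, against 2.25% of all shares. Only the share of MSTRG.644.19 had an unadjusted limma p of at most 0.05, 1 of 34 against 4.03%. MSTRG.644.19 (114 exons, 22477 bases) had 1.82, 1.89 and 1.69 FPKM in the controls and 1.27, 0.464 and 0.624 FPKM in the models (log2 ratio -1.20). The annotated ENSRNOT00000047472 (53 exons, 8502 bases) had 0.747, 1.23 and 1.21 FPKM and 0.686, 0.438 and 0.219 FPKM (log2 ratio -1.25). MSTRG.644.9 (143 exons, 29824 bases) had 1.91, 2.96 and 2.98 FPKM and 2.06, 0.809 and 0.884 FPKM (log2 ratio -1.06). MSTRG.644.13 (146 exons, 27706 bases) had 2.24, 2.97 and 2.28 FPKM and 2.10, 0 and 0.498 FPKM (log2 ratio -1.52). In all 4 the lowest values were those of models 2 and 3, and model 1 was nearer to the controls. For MSTRG.644.9 the groups overlapped. The count of called transcripts in both nesprin loci was 0 without model 3, 1 without model 2, control 2 or control 3, and 2 in TPM or with a pseudocount of 0.1. Without model 2 or control 2 the transcript called was none of these 4.

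In model 2 and in model 3 a different transcript of the locus was far above the controls. MSTRG.644.14 (147 exons, 27870 bases) had 2.03, 3.02 and 2.04 FPKM in the controls and 1.93, 13.0 and 0.466 FPKM in the models, and MSTRG.644.10 (146 exons, 27884 bases) had 0.0734, 0.285 and 0.161 FPKM and 0.181, 0.00750 and 11.2 FPKM. Both differ by 14 bases in length. MSTRG.644.20 (86 exons, 21794 bases) had 4.78, 3.76 and 5.32 FPKM and 8.04, 1.505 and 0.0578 FPKM. The largest share of the locus belonged to MSTRG.644.20 in all controls (13.2% to 17.7%) and in model 1 (29.7%), to MSTRG.644.14 in model 2 (49.5%) and to MSTRG.644.10 in model 3 (43.4%). Thus a single isoform led in models 2 and 3, but not the same one. Model 3 is the sample with the highest summed level of cardiac muscle genes (Myh6 at 5.11 FPKM, 0.0339 FPKM in model 2 and 0 elsewhere). The part of cardiac muscle in its value of MSTRG.644.10 was not tested.

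The other transcripts of the Syne1 locus with a mean of at least 1 FPKM overlapped between the groups. MSTRG.644.8 had 2.32, 2.91 and 3.04 FPKM in the controls and 2.58, 0.521 and 1.06 FPKM in the models, and MSTRG.644.12 had 2.03, 2.76 and 2.03 FPKM and 1.94, 2.75 and 0.454 FPKM. MSTRG.644.1 had 1.85, 0.0472 and 1.54 FPKM and 0.600, 0.197 and 0.467 FPKM. The annotated ENSRNOT00000025795 had 1.84, 3.29 and 2.52 FPKM and 1.96, 2.40 and 1.21 FPKM. MSTRG.645.1, a piece of 1339 bases on the opposite strand inside an intron, took 5.11% to 10.5% of the sum. The 10 remaining transcripts had means below 1 FPKM in both groups.

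**Figure D4:**
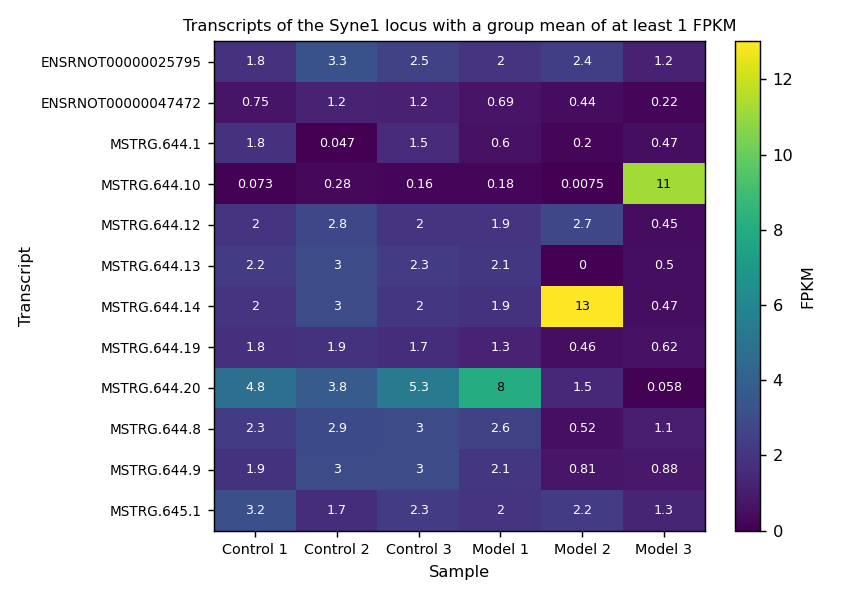
FPKM (colour scale, with rounded values printed) of the 12 transcripts of the Syne1 locus with a mean of at least 1 FPKM in a group, in the 3 control and 3 model samples. Single bright cells mark MSTRG.644.14 in model 2 (13.0 FPKM) and MSTRG.644.10 in model 3 (11.2 FPKM), and the 10 other transcripts have at most 2.75 FPKM in models 2 and 3.

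The locus of Syne2, the gene of nesprin-2, had the highest sum, with 56.7, 34.3 and 66.0 FPKM in the controls and 58.1, 62.1 and 48.8 FPKM in the models (limma, adjusted p = 0.963). Control 2 was the lowest and the groups overlapped. Its most stable transcript was the assembled MSTRG.30934.1 (chromosome 6, plus strand, 98844911 to 99025930, 57 exons, 12463 bases), with 12.7, 11.7 and 11.5 FPKM in the controls and 13.4, 12.0 and 11.3 FPKM in the models. Short annotated transcripts carried most of the variation. ENSRNOT00000079448 (99059131 to 99063828, 3 exons, 300 bases) had 19.3, 0 and 16.1 FPKM in the controls and 12.4, 17.8 and 16.3 FPKM in the models. ENSRNOT00000077127 (99044735 to 99058720, 6 exons, 855 bases) had 0.440, 0.325 and 13.8 FPKM and 11.8, 14.8 and 0.677 FPKM. High and low values of both occurred within a group.

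The remaining Syne2 transcripts also overlapped. ENSRNOT00000078094 had 5.98, 3.17 and 5.14 FPKM in the controls and 3.92, 0.713 and 3.92 FPKM in the models, and ENSRNOT00000084724, of 123 bases, had 2.32, 3.71 and 4.19 FPKM and 1.71, 2.94 and 1.23 FPKM. MSTRG.30937.1 had 7.87, 7.53 and 4.31 FPKM and 6.62, 1.76 and 7.93 FPKM. MSTRG.30937.2 had 3.77, 3.89 and 6.88 FPKM and 4.0, 8.56 and 4.11 FPKM. In both control 3 and model 2 the first was low and the second was high. MSTRG.30937.5 lay between 0.849 and 1.34 FPKM and MSTRG.30935.1, inside an intron, between 1.57 and 2.50 FPKM. None of the 11 Syne2 transcripts tested was called by limma, against 2.98% of all transcripts, and 0 had an unadjusted p of at most 0.05, against 4.53%.

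Ordered by the mean of all samples, the summed FPKM was highest for the Syne2 locus, followed by the Syne1 locus, Sun2, Lmna, Sun1, Emd, Lmnb1, Syne3 and Lmnb2. The ranges of neighbours in this order did not overlap, except those of Sun2 and Lmna, of Lmna and Sun1, and of Syne3 and Lmnb2. The sums of Syne1, Syne2, Syne3, Lmnb1 and Emd include pieces in introns or downstream of the gene, and that of Syne2 includes transcripts as short as 123 bases. Several Syne2 transcripts lie one after another without overlap, among them MSTRG.30934.1, ENSRNOT00000077127 and ENSRNOT00000079448. Their sum is thus not a level per length, and whether they are pieces of the same transcript was not tested. The longest, MSTRG.30934.1, had 11.3 to 13.4 FPKM, below the sums of Sun2, Lmna and Sun1 in every sample.

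**Figure D5:**
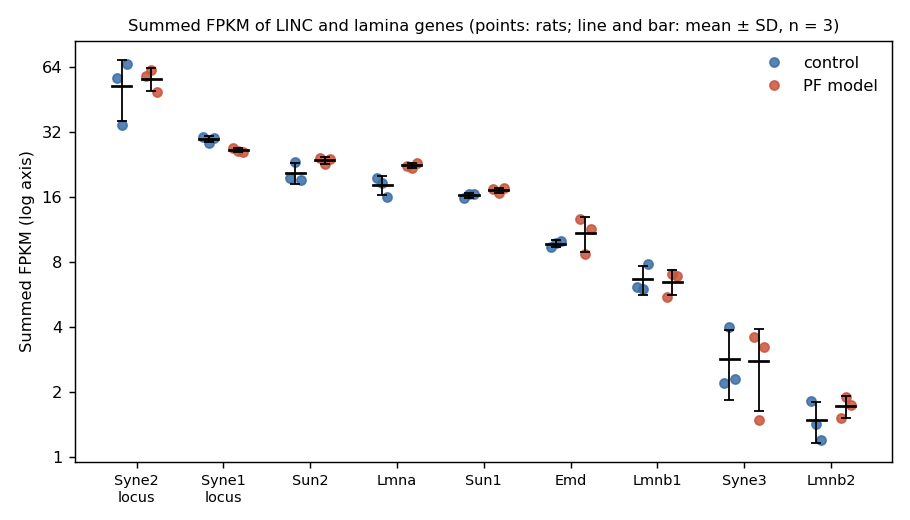
Summed FPKM (y axis, log scale) of the 7 genes found by name and of the Syne1 and Syne2 loci, with points for rats, horizontal lines for means and bars for SD (n = 3 per group). Lmna and Sun1 are higher in every model than in any control, the Syne1 locus is lower, and the groups of the others overlap.

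Of 46 further genes of the pathway, 45 were in the table and 43 were tested. None was called by limma in the FPKM as deposited, against 2.11% of all genes, and 3 had an unadjusted p of at most 0.05, against 4.9% of all genes. The groups did not overlap for 6 of the 43, against 10.8% of all genes, and the median log2 ratio was -0.0049 with 21 genes above and 22 below 0. Among 14 LINC partners, Kif5b, a kinesin heavy chain that moves cargo along microtubules, had 19.3, 17.6 and 19.4 FPKM in the controls and 17.01, 16.5 and 15.2 FPKM in the models (limma, adjusted p = 0.927). The next smallest p, above 0.05, was that of Fhod1, a formin that binds nesprin-2 and actin. A list named lamina binding proteins had 14 tested genes, and whether each product binds the lamina was not tested. Of these, Nrm, which encodes nurim of the inner nuclear membrane, had 0.960, 1.52 and 1.09 FPKM in the controls and 2.33, 2.30 and 2.29 FPKM in the models. Its log2 ratio of 0.96 (limma, adjusted p = 0.927) was just below the limit for a call, and reached 1.05 in TPM and 1.17 without control 2, where it was called. Banf1, which tethers chromatin to LEM domain proteins such as emerin, had 30.1, 28.6 and 31.0 FPKM and 32.6, 34.6 and 35.0 FPKM (limma, adjusted p = 0.927). In Kif5b, Nrm and Banf1 the groups did not overlap. Of 5 enzymes that mature lamins, Fntb, a subunit of farnesyltransferase, and Rce1, a protease of farnesylated proteins, had the smallest p values, both above 0.05. Of 10 pore proteins, Tpr of the nuclear basket and Pom121 of the pore membrane had the smallest, also above 0.05. The groups did not overlap for 3 of the 10, with Tpr and Nup107 lower and Nup93 higher in the models. Tpr had 11.7, 11.8 and 11.8 FPKM in the controls and 10.9, 10.7 and 6.67 FPKM in the models.

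Back-splice reads, which mark circRNAs, gave a second readout of the same libraries. Of 5216 circRNAs, 4 came from genes found by name (2 of Sun1, 1 of Sun2 and 1 of Lmnb1) and 7 from the nesprin loci. No one of them had more than 4 reads in all samples together, below the minimum of 10 reads, so that no test was made. They held 2, 1 and 3 reads in the controls and 2, 2 and 6 reads in the models, of between 2037 and 2964 back-splice reads per library. The Sun2 circRNA (chromosome 7, 120961281 to 120962834, 3 exons) had 1 read, in control 3, and a difference between the groups was not detectable at this depth.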

How the data were processed

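Lung RNA of 3 control and 3 PF model rats was analysed, grouped by the condition in the labels; the miRNA libraries were not used here. Per the labels and the methods, the authors mapped the reads (the labels name HISAT2 and TopHat, the methods Bowtie2 and Tophat2, and which made the FPKM is not settled), assembled them with StringTie and deposited FPKM and per-base coverage, a signal not normalized for library size, for each transcript. The authors also deposited counts of back-splice reads of circRNAs and SRPBM, a normalized signal that was not used here. Versions and the genome build are not given in the sources used here. All 24 measurement columns were assigned to a sample.

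FPKM were summed over each gene name. Reads per transcript were estimated from coverage, transcript length and reads of 150 bases. The groups were tested two-sided in limma 3.58.1 (trended variance, R 4.3.3) on log2(FPKM + 1), over all features above 0 in at least 3 samples, and on the arcsine of the square root of isoform shares for genes with a mean of at least 1 FPKM. A feature was called when its unadjusted p did not exceed 0.05, together with a log2 ratio of group means of at least 1 or a share difference of at least 10 percentage points. Benjamini-Hochberg values were adjusted over all features tested. Simulated data with 200 of 29066 genes changed by 2 log2 units gave 98.5% of them as called, with 573 unchanged genes. At an adjusted p below 0.05 these were 86.5% and 16 unchanged genes. Of 200 changed among 64610 transcripts 97.5% were called, with 2204 unchanged ones, and 58.5% with 10 unchanged ones at an adjusted p below 0.05. Of 200 changed among 48163 shares 77% were called, with 1258 unchanged ones, and 0% with 4 unchanged ones at an adjusted p below 0.05. The changes were added on the log2(FPKM + 1) scale to features with a mean above 1 on that scale. For shares they were added on the arcsine scale to shares of intermediate size. Noise was drawn independently for each feature. Changes of low features and changes smaller than these were not simulated. Each sample is 1 rat. The p-values weigh the group difference against the spread between rats within groups, with each variance drawn towards the trend over all features.

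Class codes were read as equal to the annotation (=), sharing at least 1 junction (j), inside an intron (i) or downstream (p). The members, lists and tests were chosen with earlier results of these data known. Isoforms with a mean of at least 1 FPKM in a group were given in full, and of each list the 2 genes with the smallest p and any called. Nup93 and Nup107 were named in addition, since their groups did not overlap. The genes named for cell types were picked after their values were seen. Alternatives were other pseudocounts, filters, scalings and sums, the replicate number as a block, and each sample left out. Python 3.11.15 and pandas 2.3.3 handled the tables.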

Additional observations from a re-analysis of the deposited data

How the results depend on the processing

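The counts of called members were 0 under every alternative run for the 6 genes, their transcripts and their isoform shares, also with each sample left out in turn. Among pathway genes 1 was called, Nrm, after rescaling to TPM (1) and without control 2 (range 0 to 1 over the left-out samples). The share difference of MSTRG.33447.1, whose direction the choice of this isoform fixes, was 8.36 percentage points when MSTRG.33447.1 and MSTRG.33447.3 were taken as one, an alternative added after the data were seen. It was 29.55 percentage points when MSTRG.33447.1 was taken with MSTRG.33447.2, and 30.3 to 32.9 with a sample left out. For Lmna the unadjusted p lay between 0.00464 and 0.0406 and the adjusted p was at least 0.834. For the Syne1 locus the unadjusted p was between 0.0518 and 0.126 with a sample left out, 0.0838 with the replicate block, 0.0879 without trend, 0.0853 among genes with a mean of at least 1 FPKM, 0.433 in TPM and 0.47 with isoforms weighted by length. Calls in the nesprin loci, 4 as reported, were 2 with a pseudocount of 0.1 and 2 in TPM, and between 0 and 6 with a sample left out. The log2 difference of Syne3 turned to 0.01 with isoforms weighted by length, 0.01 in TPM and 0.02 without intronic and downstream pieces, with a range of -0.22 to 0.23 when a sample was left out (0.23 without model 2, 0.16 without control 2). That of Lmnb1 turned to 0.01, 0.04 and 0.02 in the same settings, with a range of -0.10 to 0.07 (0.07 without model 1 or control 3). That of the Syne2 locus was -0.12 without control 2 (range -0.12 to 0.34). The causes were not tested. Same-numbered samples did not deviate together (r = 0.07, 0.06 and -0.04), so the numbers were not taken as pairs. With the replicate number as a block, 0 genes, transcripts and shares of the 6 members and 0 pathway genes were called, and 1 transcript of the nesprin loci. The planned edgeR and DESeq2 fits of circRNAs were not run for members, since none reached 10 reads.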
